A study of Mus musculus with 40 samples.

Results

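The 144 genes described here are the mouse zinc finger genes whose symbols run from Zfp600 to Zfp999, chosen by symbol alone out of the 39179 genes of the expression table. They carried 142 symbols, because Zfp850 appeared under 3 identifiers, and no row was named Zfp638. Reads were found for 142 of the 144 genes in at least 1 library. For 127 of them the normalised read count reached 10 in at least 2 libraries, and only these entered the tests. The 17 that did not were Zfp600, Zfp616, Zfp640, Zfp641, Zfp648, Zfp663, Zfp697, Zfp781, Zfp791, Zfp811, Zfp819, Zfp853, Zfp872, Zfp936, Zfp957, Zfp964 and 1 of the 3 Zfp850 entries.

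The study profiled CD4+ T cells from mouse spleen to ask how SETDB1, an enzyme that places the silencing mark H3K9me3 (trimethylated lysine 9 of histone H3), bears on T helper cell identity. RNA was sequenced in 18 libraries of 6 groups. Naive cells (day 0 of culture) came from C57BL/6 Setdb1+/+ mice (WT, 4 libraries) and C57BL/6 Setdb1-/- mice (labelled Setdb1 KO, 3 libraries). Th2 cells of the same 2 genotypes (3 libraries each) had spent 6 days in culture: anti-CD3 (10 ug/mL) and anti-CD28 (1 ug/mL) up to day 3, IL-4 (50 ng/mL) with anti-IFN-gamma throughout, and IL-2 (30 IU/mL) from day 3. Th2-Th1 cells (2 WT and 3 labelled Setdb1 KO libraries) were Th2 cells kept for 2 further days with IL-12 (10 ng/mL) and anti-IL-4. H3K9me3 was mapped in naive and Th2 cells of both genotypes and in Th2 cells of Suv39h1-/- mice, whose background strain the labels do not name. SUV39H1 is another enzyme that places H3K9me3. Age, the means by which Setdb1 was deleted and whether replicates were separate mice or cultures are not given, as far as the sources used here go, so every p-value below measures the spread between libraries, which may be technical.

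C2H2 zinc finger proteins bind DNA through tandem fingers, and in mammals they form the largest family of transcription factors. Many carry a KRAB domain, through which they recruit TRIM28 (KAP1), which in turn recruits SETDB1 and heterochromatin protein 1 to the bound site, often an endogenous retrovirus. Genes of this family lie in tandem clusters that grew by duplication, usually encode the whole finger array in their last exon, and are themselves known to carry H3K9me3 over that part. The symbol range is a naming series and not a family: Zfp608, Zfp609, Zfp622, Zfp706 and Zfp830, for example, are not KRAB genes. Reads from recent duplicates can be shared or lost in counting, and the authors' treatment of such reads is not stated in the sources used here, so values of near-identical members are uncertain.

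Library depth ran from 10.019 to 19.841 M reads in genes for the naive and WT libraries and from 36.261 to 44.719 M for the Th2 and Th2-Th1 libraries labelled Setdb1 KO, so depth moved with genotype in those comparisons. The Setdb1 transcript itself was lower in labelled-KO than in WT naive cells (1006 ± 87.2 against 1310 ± 66.4 normalised reads, mean ± SD, n = 3 and 4). In the cultured cells it went against the label: 8485 ± 503 against 823 ± 121 in Th2 cells (n = 3 and 3) and 6244 ± 1020 against 1603 ± 12.1 in Th2-Th1 cells (n = 3 and 2). A gene-level count does not show whether the deleted part is missing, and the cultured groups are therefore written below as libraries labelled Setdb1 KO. Cd4, which defines the sorted cells, stood between 5790 and 20800 in all 18 libraries. The 7 CD4 T cell genes, Cd4 included, summed to 34013 to 38656 in Th2 libraries labelled Setdb1 KO against 50138 to 51001 in Th2 WT. In Th2-Th1 cells the sums were 48618 to 53610 against 97986 to 102267. Of the 7, 4 were called lower in each state, and 1 was called higher in Th2 cells. Cd3e was at 1030 to 1140 in Th2 libraries labelled Setdb1 KO and at 490 to 644 in Th2 WT. The 4 Th2 genes summed to 3757 to 5325 against 8986 to 9313 in Th2 cells, and the 3 Th1 genes to 13753 to 25329 against 596 to 788 in Th2-Th1 cells. Of the markers of other cells, the 5 erythroid and platelet genes summed to 381 to 416 in Th2 libraries labelled Setdb1 KO and to 17.5 to 22.2 in Th2 WT. Nearly all of that sum was Hba-a1, while Hbb-bs was at 0 in all 6 of those libraries. The 4 myeloid genes in the table summed to 61.6 to 80.9 in the former and 110 to 149 in the latter, the 5 B cell genes to 46.5 to 52.4 and 18.6 to 52.4, the 2 CD8 genes to 94.0 to 113 and 103 to 202, and the 2 NK genes to 3.50 to 16.7 and 0. The part of these in the results below was not tested, and in bulk RNA fewer cells of a type and less RNA per cell cannot be told apart.

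The zinc finger genes took their largest share of the library in naive cells, took less in WT Th2 cells, and stood between those levels in cultured cells labelled Setdb1 KO. They held 0.344 to 0.372% of reads in naive WT and 0.345 to 0.359% in naive labelled-KO libraries. The share was 0.167 to 0.170% in Th2 WT against 0.233 to 0.251% in Th2 labelled Setdb1 KO, and 0.155 to 0.163% in Th2-Th1 WT against 0.216 to 0.226% in Th2-Th1 labelled Setdb1 KO. In this share the WT and labelled-KO libraries did not overlap in either cultured state, and did overlap in naive cells. The median of the 144 genes' normalised read counts followed the same order, from 201 to 233 in naive WT to 137 to 150 in Th2 WT and 157 to 183 in Th2 labelled Setdb1 KO. A share of reads is relative to the rest of each library. The 144 genes' summed normalised read counts overlapped between the genotypes in Th2 cells. These sums were 40977 to 42948 in WT and 42290 to 44652 in labelled Setdb1 KO. In Th2-Th1 cells the sums did not overlap, at 35671 to 36343 in WT and 40054 to 41083 in labelled Setdb1 KO.

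**Figure D1:**
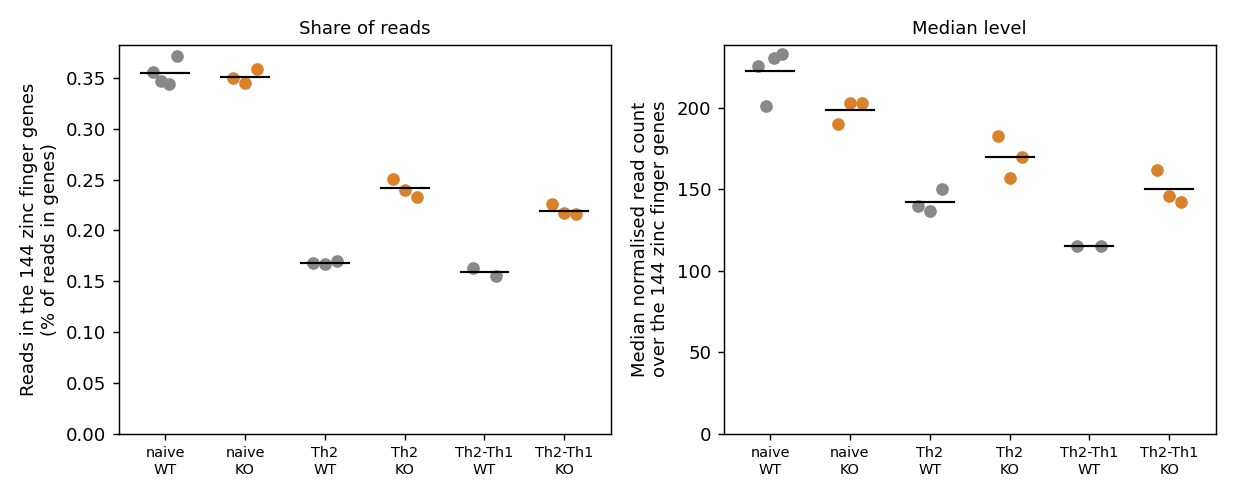
Percent of reads in genes that fell in the 144 zinc finger genes (left) and the median of their normalised read counts (right), one point per RNA library, with the group mean as a line; grey is WT, orange is labelled Setdb1 KO. The cultured WT libraries sit lowest, at 0.155 to 0.170% of reads, and the naive libraries highest, at 0.344 to 0.372%.

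Between naive and Th2 WT cells most of the tested zinc finger genes fell. Of the 127, 68 were lower and 17 higher in Th2 cells (limma, Benjamini-Hochberg adjusted p under 0.05), where 33.1% of all 17254 genes tested were lower and 32.8% higher. The median log2 difference was -0.53 over the members and -0.14 over all genes. The levels of 65 members were lower and of 15 higher with no overlap between the groups, where 30.0% and 31.0% of all genes did so.

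The 5 largest falls by the rule for named genes included Zfp831, at 2147, 2518, 2316 and 2456 in naive WT and 204, 238 and 202 in Th2 WT, a log2 difference of -3.46 ± 0.15 (SE, limma adjusted p = 9.07e-14). Zfp882 went from 352, 512, 375 and 448 to 32.3, 18.6 and 49.9 (log2 -3.70 ± 0.27, limma adjusted p = 3.57e-10). Zfp945 went from 878, 964, 954 and 1077 to 123, 59.4 and 130 (log2 -3.28 ± 0.26, limma adjusted p = 8.80e-10). In all 3 genes every Th2 library was below every naive library. Zfp946 (log2 -3.67 ± 0.35) and Zfp773 (log2 -3.34 ± 0.67) were the other members of these 5, and Zfp652, which encodes a DNA-binding repressor, fell by 2.44 ± 0.11 on the log2 scale. The 5 largest rises were in Zfp608, Zfp821, Zfp870, Zfp772 and Zfp948. Zfp608, known for regulating recombinase gene expression in thymocytes, stood at 51.1, 39.7, 97.8 and 43.5 in naive WT and at 768, 790 and 988 in Th2 WT (log2 3.93 ± 0.25, limma adjusted p = 4.16e-11). Zfp821 went from 44.9, 34.2, 67.0 and 76.5 to 464, 458 and 499 (log2 3.13 ± 0.24). Zfp622, whose product takes part in maturation of the large ribosomal subunit, rose from 1478 to 2048 in naive WT to 3611 to 4271 in Th2 WT (log2 1.14 ± 0.12).

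In Th2 cells, the libraries labelled Setdb1 KO held more RNA of more of these genes than WT did. Of 127 members 48 were higher and 23 lower, where 29.3% of all genes tested were higher and 24.7% lower. The median log2 difference was 0.29 over the members and 0.13 over all genes, and it became 0.42 and 0.24 with TMM scaling, which gave 52 higher and 17 lower. With every library reduced to the same number of reads, 46 members were higher and 23 lower. Of the 127, 57 were higher and 27 lower with no overlap between the groups (34.8% and 29.8% of all genes). The comparison of WT Th2 with naive cells uses the same Th2 WT libraries, so the values of both are given side by side for the genes named here.

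Zfp783 rose the most among members with a mean of at least 50: it stood at 58.5, 42.7 and 62.4 in Th2 WT and at 293, 211 and 224 in Th2 labelled Setdb1 KO. The log2 difference was 2.14 ± 0.25 (limma adjusted p = 6.66e-07), and the gene was at 181 to 315 in naive WT. Zfp932, a KRAB gene known to bind endogenous retroviruses, went from 78.6, 61.2 and 39.9 to 269, 204 and 247 (log2 2.03 ± 0.23, limma adjusted p = 3.53e-07) and was at 342 to 471 in naive WT. Zfp933 was at 151, 152 and 152 in WT and at 609, 574 and 665 in the labelled-KO libraries (log2 2.01 ± 0.21, limma adjusted p = 9.45e-08), against 323 to 614 in naive WT. For Zfp783 and Zfp933 the labelled-KO Th2 levels overlapped the range of naive WT cells, whereas those of Zfp932 stayed below it. Zfp945 reached 326, 299 and 372 from 123, 59.4 and 130 (log2 1.74 ± 0.27), a level still below every naive library. Zfp882, Zfp961, Zfp709, Zfp934, Zfp947 and Zfp944 made up the rest of the 10 largest rises, with log2 differences of 1.17 to 1.70. The call for Zfp947 (log2 1.27 ± 0.53, limma adjusted p = 0.0496) was lost when any of 5 of the 6 libraries was left out.

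The falls in Th2 cells labelled Setdb1 KO were led by Zfp931, at 706, 395 and 531 in WT and at 107, 96.7 and 125 in the labelled-KO libraries (log2 -2.27 ± 0.23, limma adjusted p = 1.06e-07). Zfp772 went from 381, 247 and 269 to 79.9, 104 and 71.9 (log2 -1.79 ± 0.30), which overlaps its naive WT values of 82.3 to 158. Zfp821 fell from 464, 458 and 499 to 189, 218 and 211 (log2 -1.20 ± 0.25) and Zfp622 from 3692, 3611 and 4271 to 1739, 1619 and 1870 (log2 -1.14 ± 0.13). Zfp609, whose human counterpart acts with the Integrator complex, fell from 782, 820 and 791 to 308, 395 and 404 (log2 -1.12 ± 0.18). All 5 genes had every labelled-KO library below every WT library. Zfp768, Zfp667, Zfp691, Zfp954 and Zfp787 were the other large falls, at log2 -1.15 to -1.87, and the call for Zfp768 (limma adjusted p = 0.0364) was lost without any of 5 of the 6 libraries. In naive WT cells Zfp768 had reads in 1 library of 4.

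**Figure D2:**
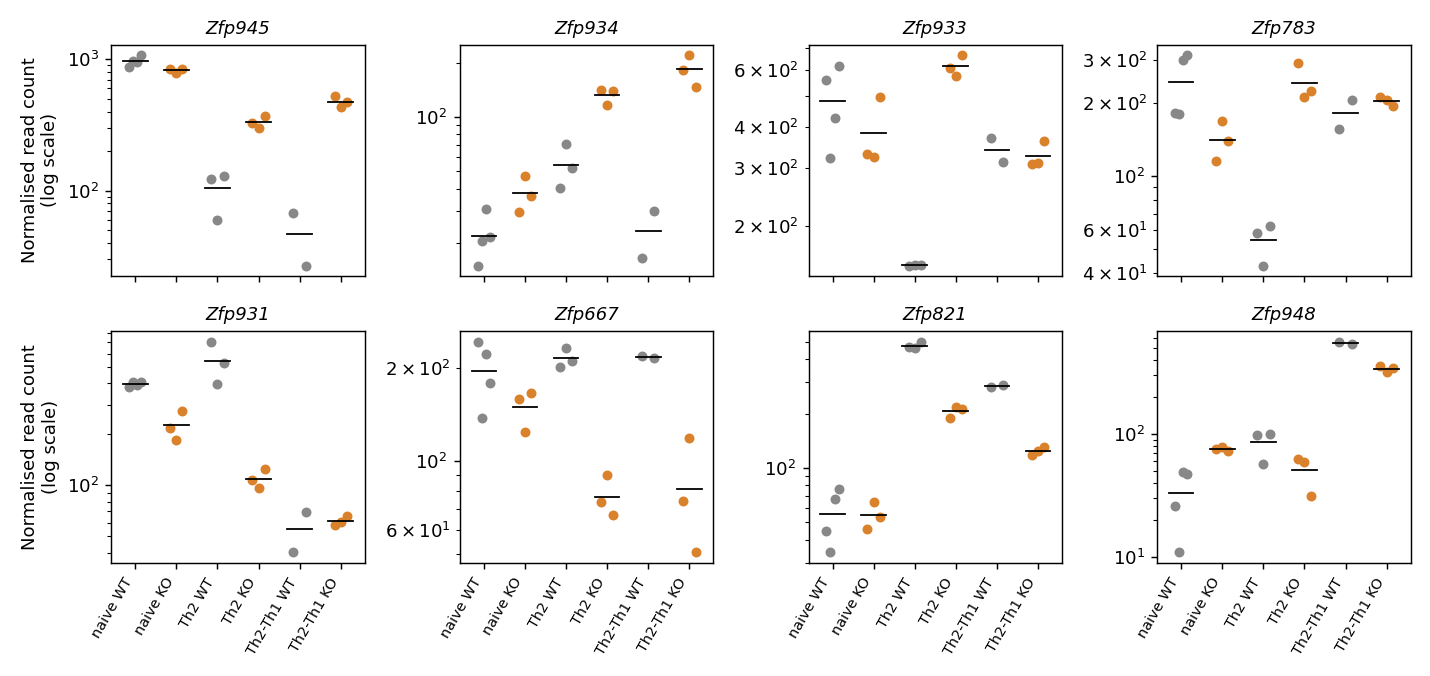
Normalised read counts of 8 zinc finger genes on log axes, one point per library and the group mean as a line; grey is WT, orange is labelled Setdb1 KO. Zfp945, Zfp934, Zfp933 and Zfp783 (top) were higher in Th2 cells labelled Setdb1 KO than in Th2 WT, and Zfp931, Zfp667 and Zfp821 lower; for Zfp948 the 2 Th2 groups overlapped.

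In Th2-Th1 cells the calls were mostly upward. Of the 127 members, 33 were higher and 8 lower in libraries labelled Setdb1 KO, where 17.6% of all genes were higher and 16.1% lower. The median log2 difference was 0.21 against 0.09 over all genes. With every library reduced to the same number of reads, 28 were higher and 7 lower. Without Th2-Th1 WT replicate 2, 1 of only 2 WT libraries, 21 were higher. The remaining WT library was then assumed to vary like the other groups. Of the 127, 54 were higher and 20 lower with no overlap between the groups (32.1% and 27.7% of all genes).

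Zfp945 showed the largest rise: 67.3 and 26.7 in WT and 529, 432 and 470 in the labelled-KO libraries (log2 3.45 ± 0.31, limma adjusted p = 8.59e-08). Zfp934 went from 16.5 and 30.2 to 183, 220 and 147 (log2 2.96 ± 0.39, limma adjusted p = 1.09e-05). Neither overlapped between the groups. Zfp711, an X-linked gene whose product is known to work with the demethylase PHF8, stood at 30.7 and 26.7 in WT and at 189, 210 and 97.6 in the labelled-KO libraries, but its call (log2 2.42 ± 0.71, limma adjusted p = 0.0122) was lost without either WT library. Zfp935 rose from 117 and 123 to 348, 380 and 371 (log2 1.60 ± 0.22), whereas in Th2 cells it was at 179, 160 and 237 in WT and 184, 188 and 227 in the labelled-KO libraries. Zfp873, Zfp865, Zfp808, Zfp629, Zfp870 and Zfp709 rose by 1.15 to 1.72 on the log2 scale. The calls for Zfp870 and Zfp709 were lost without 1 library (Zfp709 without Th2-Th1 WT replicate 2 or labelled-KO replicate 1, Zfp870 without any of 4 of the 5). The 8 that fell were Zfp667, Zfp821, Zfp831, Zfp764, Zfp830, Zfp747, Zfp746 and Zfp740, from log2 -1.49 ± 0.31 for Zfp667 to log2 -0.26 ± 0.09 for Zfp740. Zfp667 was at 219 and 216 in WT and at 74.4, 119 and 50.7 in the labelled-KO libraries, with adjusted p = 0.0548 (limma) when only the Th2-Th1 libraries were fitted. The call for Zfp746, which encodes the transcriptional repressor PARIS, was lost without Th2-Th1 WT replicate 2. That for Zfp740 (limma adjusted p = 0.0365) was lost under 9 of 13 alternatives, among them TMM scaling and edgeR.

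Naive cells of the 2 genotypes differed in few of these genes. Of the 127 members 8 were higher and 6 lower in libraries labelled Setdb1 KO, where 7.43% of all genes were higher and 3.45% lower. The median log2 difference was -0.12 against -0.01 over all genes, and 9 members were higher and 11 lower with no overlap between the groups (9.66% and 6.92% of all genes). Naive WT replicates 1 and 3 and labelled-KO replicate 2 had reads for 21915 to 25556 genes, against 15296 to 19359 in the other 4 naive libraries. Without those 3 libraries, 3 members were higher and 2 lower. Zfp664 rose from 805, 904, 818 and 792 to 1292, 1288 and 1018 (log2 0.52 ± 0.12, limma adjusted p = 0.00525), and Zfp654 from 1120, 1138, 1238 and 1158 to 1725, 2153 and 1384 (log2 0.57 ± 0.12, limma adjusted p = 0.00463). Neither gene overlapped between the groups, but both calls were lost without those 3 libraries and when only naive libraries were fitted. The other changes named by the same rule were rises in Zfp948 and Zfp706 and falls in Zfp931, Zfp783 and Zfp692, and each of these calls was lost under at least 4 of 16 alternatives.

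Zfp683 (Hobit), a transcription factor of tissue-resident and innate-like lymphocytes, was higher in libraries labelled Setdb1 KO in all 3 states, at low levels. It had 1.37 normalised reads in 1 naive WT library and 0 in the other 3, against 16.1, 9.72 and 13.8 in naive labelled-KO cells. In Th2 cells the values were 8.07, 3.71 and 0 against 18.7, 29.6 and 20, and in Th2-Th1 cells 0 and 1.16 against 7.83, 15.5 and 15.8. The groups did not overlap in any state. The adjusted p was 0.00249, 0.00417 and 0.00548 (limma), and the last became 0.0732 without Th2-Th1 WT replicate 1. Zfp706 and Zfp871 were the other members called higher in all 3 states, and Zfp747 was the only member called lower in all 3. How many of all genes were called in all 3 states was not counted. In naive cells Zfp871 overlapped between the genotypes (1276 to 1675 in WT and 1654 to 2463 in labelled-KO libraries). It was named after its values were seen.

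Several members have a known role of their own. Zfp809, which binds the primer binding site of murine leukaemia viruses, rose in Th2 cells from 341, 325 and 342 to 624, 656 and 638 (log2 0.93 ± 0.15, limma adjusted p = 2.75e-05). In naive cells it was at 452 to 621 in WT and 502 to 540 in labelled-KO libraries, and in Th2-Th1 cells its call (log2 0.49 ± 0.17, limma adjusted p = 0.0275) was lost under 5 of 13 alternatives. Zfp708, known for binding another class of repeats, was not called in any genotype comparison, with 38.3, 70.5 and 87.3 in Th2 WT and 69.1, 65.4 and 71.4 in Th2 labelled Setdb1 KO. Zfp819 and Zfp600 stayed below the level tested, with no value above 9.05. Zfp687 rose in Th2 cells (337, 299 and 319 to 636, 612 and 586, log2 0.94 ± 0.15), and Zfp644 was at 1635 to 1804 in WT and 2057 to 2138 in the labelled-KO libraries (log2 0.27 ± 0.09, limma adjusted p = 0.0163, 0.0721 at most under the alternatives). Zfp750, an epidermal differentiation gene, was at 4.03, 0 and 7.48 against 12.3, 16.1 and 24.0, and its call (limma adjusted p = 0.0405) was lost under 9 of 14 alternatives.

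**Figure D3:**
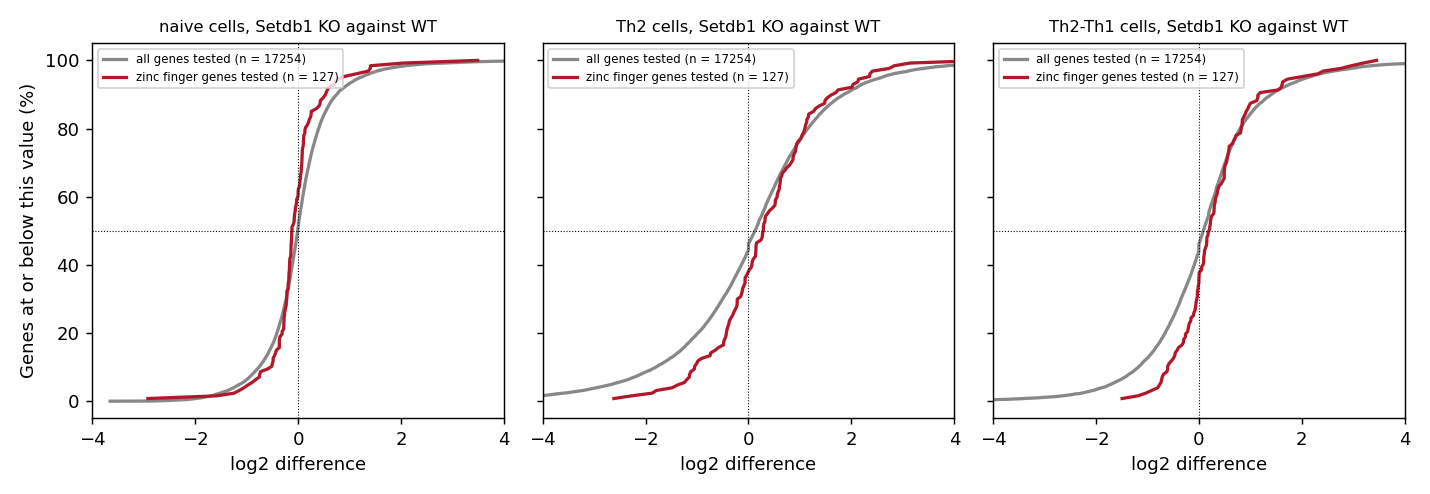
Cumulative distribution of log2 differences, libraries labelled Setdb1 KO against WT, in naive, Th2 and Th2-Th1 cells; red is the 127 zinc finger genes tested and grey all 17254 genes tested. The members' medians are -0.12, 0.29 and 0.21, those of all genes -0.01, 0.13 and 0.09, and values beyond 4 either way are outside the axes.

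The genotype difference changed with the culture state for part of the members, by a test of the difference itself (an interaction term in the same limma fit). Between naive and Th2 cells, 37 members had a more positive and 16 a more negative difference in Th2 cells, where 20.7% and 20.6% of all genes did. Zfp783 led, at log2 -0.75 in naive and 2.14 in Th2 cells (interaction 2.89 ± 0.35, limma adjusted p = 1.86e-06), and Zfp946 (2.87 ± 0.52) and Zfp933 (2.32 ± 0.28) were also among the 5 largest. Zfp931, which was lower in both states, had the difference widen (interaction -1.44 ± 0.32). Between Th2 and Th2-Th1 cells the counts were 22 and 18, where 17.3% and 18.2% of all genes were called. Zfp932, Zfp933, Zfp783 and Zfp882, high in Th2 cells labelled Setdb1 KO, were not called in Th2-Th1 cells. Zfp933 was at 370 and 314 in Th2-Th1 WT and at 310, 311 and 363 in the labelled-KO libraries (interaction -2.07 ± 0.31, limma adjusted p = 3.01e-05). Zfp945 and Zfp934 went the other way, with larger differences after the switch (interactions 1.71 ± 0.41 and 1.66 ± 0.53). For Zfp931 the Th2-Th1 groups overlapped, with 40.2 and 69.7 in Th2-Th1 WT against 58.2, 60.6 and 66.0 (interaction 2.48 ± 0.35). Zfp764 and Zfp746 were higher in Th2 and lower in Th2-Th1 cells labelled Setdb1 KO, and Zfp869 and Zfp958 the reverse; all 4 interactions between these states passed the test. Of the 48 members higher in Th2 and the 33 higher in Th2-Th1 cells, 23 were higher in both, which is 47.9% and 69.7% of the lists. Zfp667, Zfp747 and Zfp821 were the 3 members lower in both. The same overlap over all genes was not counted, so whether these shares are particular to the members cannot be read from them.

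The WT cells themselves changed during the switch to Th1 medium. Compared with Th2 WT, 23 members were higher and 38 lower in Th2-Th1 WT, where 25.8% and 24.0% of all genes were called, and the median log2 difference was -0.12 against 0.00. The levels of 32 members were higher and of 39 lower with no overlap (32.6% and 30.1% of all genes). Zfp948 stood at 98.8, 57.5 and 99.8 in Th2 WT and at 559 and 533 in Th2-Th1 WT (log2 2.71 ± 0.47). Zfp931 went from 706, 395 and 531 to 40.2 and 69.7 (log2 -3.30 ± 0.26, limma adjusted p = 4.32e-09) and Zfp608 from 768, 790 and 988 to 188 and 175 (log2 -2.21 ± 0.30). Without Th2-Th1 WT replicate 2, 24 members were lower, and 23 when only these 2 groups were fitted.

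H3K9me3 peaks covered these genes in a larger share than they covered genes at large. The authors called 1 list per group, so a share has no replicate error, and lists differ greatly in size: 9659 peaks in naive WT, 1163 in naive labelled Setdb1 KO (a single sample), 12233 in Th2 WT, 1708 in Th2 labelled Setdb1 KO and 43404 in Th2 labelled Suv39h1 KO. In the RefSeq annotation 142 of the 144 genes had a position. Of these, 62 (43.7%) overlapped a peak in naive WT and 52 (36.6%) in Th2 WT, where 9.93% and 10.5% of all 32255 placed genes did. In the lists labelled Setdb1 KO, 33 (23.2%) did in naive and 14 (9.86%) in Th2 cells, where 1.31% and 1.46% of all genes did. In Th2 cells labelled Suv39h1 KO, 98 (69.0%) did, where 29.2% of all genes did. Among genes of 10 to 30 kb only, the shares were 38.7% of 93 members and 10.3% of 7261 genes in Th2 WT. The remaining numbered Zfp genes gave similar shares, 39.0% in naive WT and 35.9% in Th2 WT.

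**Figure D4:**
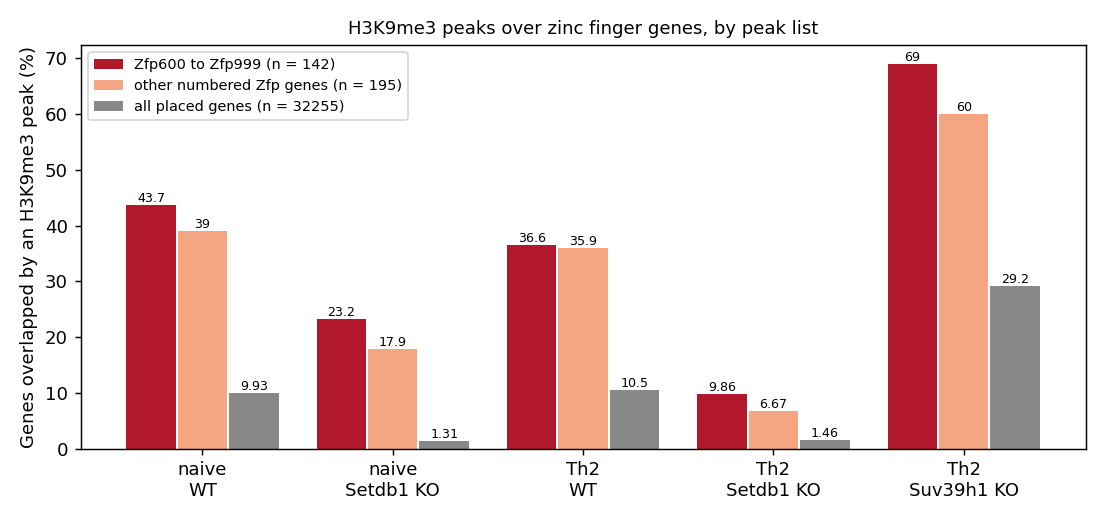
Percent of genes overlapped by at least 1 bp of an H3K9me3 peak in each of the 5 deposited lists, for Zfp600 to Zfp999 (142 placed genes), the other numbered Zfp genes (195) and all placed genes (32255). The share of the zinc finger genes falls from 43.7% to 23.2% between the naive WT and labelled-KO lists and from 36.6% to 9.86% between the Th2 lists.

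Many of the zinc finger genes with a WT peak also had one in the labelled-KO list, in a larger share than genes at large. Of the 62 members with a peak in naive WT, 33 (53.2%) also had one in naive cells labelled Setdb1 KO, where 10.6% of the 3204 genes with a naive WT peak did. Of the 52 with a peak in Th2 WT, 14 (26.9%) also had one in Th2 cells labelled Setdb1 KO, where 7.86% of 3396 genes did. For the remaining numbered Zfp genes these shares were 46.1% of 76 in naive and 15.7% of 70 in Th2 cells. All 52 members with a Th2 WT peak also had a peak in the Suv39h1 KO list, as did 98.6% of all genes with a Th2 WT peak. The 14 genes with a peak in all 5 lists were Zfp600, Zfp605, Zfp763, Zfp810, 1 of the Zfp850 entries, Zfp866, Zfp867, Zfp930, Zfp936, Zfp938, Zfp942, Zfp951, Zfp958 and Zfp959. In 43 members no list had a peak, among them Zfp622, Zfp772, Zfp740, Zfp830 and Zfp683. The 44 members with a peak in both WT lists were 71.0% of those with a naive WT peak and 84.6% of those with a Th2 WT peak, where the shares over all genes were 66.1% and 62.3%. Over the remaining numbered Zfp genes they were 77.6% and 84.3%.

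The peaks lay towards the ends of the genes. Of 67 Th2 WT peaks on members with a known strand, 43 had their centre in the part nearest the gene's end when the gene was cut into 3 equal parts, where 29.2% of peaks on other genes did, and 1 centre was within 2 kb of a start. In naive WT 49 of 83 did, where 33.0% of peaks on other genes did. Peaks on members were also longer, with a median of 2900 bp in Th2 WT against 1050 bp on other genes. On Zfp945 (mm10 chr17:22846697-22867309, minus strand) the Th2 WT peak chr17:22849651-22855500 was 5850 bp long, with its centre 5878 bp from the gene's end. The naive WT list had a peak at chr17:22846751-22857400 there and the naive labelled-KO list at chr17:22849751-22855500, while the Th2 labelled-KO list had none. On Zfp933 (minus strand) the Th2 WT peak chr4:147823851-147828900 and the naive labelled-KO peak chr4:147825451-147828100 lay near the gene's end, again with none in Th2 labelled Setdb1 KO. On Zfp942 (mm10 chr17:21926960-21962503, minus strand) the Th2 WT list had 3 peaks and the Th2 labelled-KO list had 1, chr17:21927601-21929350, whose centre was 1516 bp from the gene's end.

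RNA in Th2 cells was then set beside the peaks, in members that had a Th2 WT peak and none in the labelled-KO list and in the others. Of 34 such genes tested (of 38), 19 were higher and 7 lower in the labelled-KO libraries. Their median log2 difference was 0.87. The count lower was 4 with TMM scaling, with edgeR and without Th2 WT replicate 2. Of 80 tested members without a Th2 WT peak (of 90), 26 were higher and 14 lower, with a median of 0.20. Of the 11 tested (of 14) with a peak in both lists, 3 were higher (Zfp942, Zfp866 and Zfp959) and 2 lower (Zfp958 and Zfp938), with a median of -0.09 that became 0.05 with TMM scaling, 0.03 with edgeR and 0.05 without Th2 WT replicate 2. The count lower in this class was 1 under 10 of 14 alternatives. Among all genes that had a peak in Th2 WT and none in the labelled-KO list, 32.9% were higher and the median was 0.18. The remaining numbered Zfp genes of that class had 18 of 59 higher and a median of 0.08. Those of them without a Th2 WT peak had 46 of 112 higher (median 0.38), and those with a peak in both lists 7 of 11 (median 0.47). By naive WT peak instead, 38.2% of tested members with one and 38.6% without were higher in Th2 cells labelled Setdb1 KO. The differences between these classes were not tested, and the classes also differ in gene length, with a median of 21.7 kb for members with a Th2 WT peak and 14.9 kb without. The 19 included 9 of the 10 rises named above (Zfp783, Zfp932, Zfp933, Zfp945, Zfp961, Zfp709, Zfp934, Zfp947 and Zfp944), but not Zfp882, whose only peak was in the Suv39h1 KO list. The 7 that were lower were Zfp608, Zfp609, Zfp712, Zfp747, Zfp748, Zfp869 and Zfp952. The largest log2 difference in this class, 4.62 ± 0.89, was that of Zfp704, a gene of 183.1 kb with 0, 0 and 2.49 normalised reads in WT and 30.2, 33.6 and 47.0 in the labelled-KO libraries. Zfp704 was chosen after its values were seen.

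**Figure D5:**
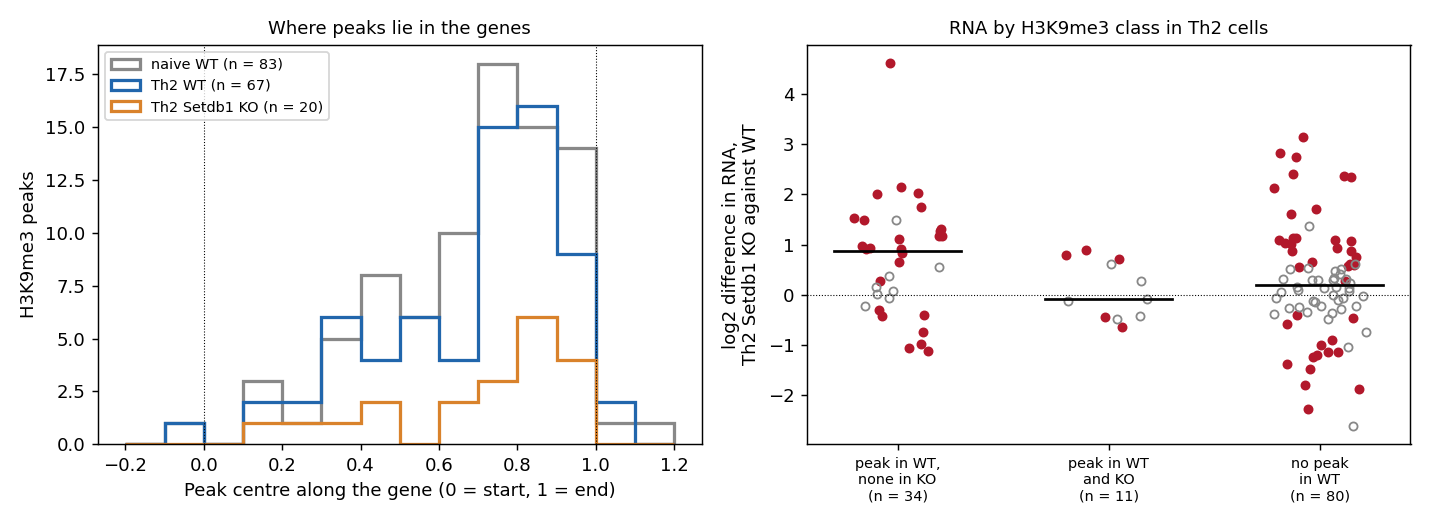
Left, number of H3K9me3 peaks on the zinc finger genes by the position of the peak centre along the gene (0 is the start, 1 the end; peaks may extend past the gene) in naive WT, Th2 WT and Th2 labelled Setdb1 KO. Right, log2 RNA difference in Th2 cells, labelled Setdb1 KO against WT, by peak class; filled points passed the test, lines are medians (0.87, -0.09 and 0.20; the -0.09 becomes 0.05 with TMM scaling).

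By position, 66 of the 142 placed members lay in 13 runs of at least 3 members with gaps of at most 250 kb. The largest run, at chr17:21383707-22456689, held 10 members: Zfp677, Zfp948, Zfp760, Zfp820, Zfp942, Zfp943, Zfp947, Zfp944, Zfp758 and Zfp946. In Th2 cells labelled Setdb1 KO 7 of them were higher and none was lower, at a median log2 difference of 0.90 and values of 0.87 ± 0.26 for Zfp760 to 2.83 ± 0.79 for Zfp820. In Th2-Th1 cells 5 were higher and none was lower, and in naive cells 1 was higher and 1 lower. Over all genes tested, 29.3% were higher and 24.7% lower in Th2 cells, and over the members 37.8% and 18.1%. The shares over all genes were 17.6% and 16.1% in Th2-Th1 cells and 7.43% and 3.45% in naive cells. Of these 10, 5 overlapped a Th2 WT peak and 1, Zfp942, a peak labelled Setdb1 KO. The run of 9 at chr7:127242996-127885996 had 4 higher and 2 lower in Th2 cells and a median of 0.52. At chr17:32765496-33033381, with 5 of 6 members tested, 2 were higher and 1 lower, with a median of 0.51. The run of 4 at chr8:71882068-71970333 (Zfp709, Zfp882, Zfp617 and Zfp961) had 3 higher in Th2 cells and a median of 1.51. At chr7:4915181-5038446 (Zfp628, Zfp865 and Zfp784) all 3 were higher, with a median of 1.04, and at chr6:47815536-48086986 3 of 5 were higher and none lower. The run at chr13:67038594-67683512 was mixed, with 1 of 6 higher and 2 lower, and 4 of the 6 overlapped a Th2 WT peak. At chr7:7114683-7209998 (Zfp954, Zfp773 and Zfp772) none of 3 was higher and 2 were lower. At chr7:43114166-43618279, a run of 5 with 3 tested, none was higher and 2 were lower, with a median of -0.47. At chr8:69610654-69774911, a run of 5 with 4 tested, 1 was higher and 1 lower, with a median of -0.3. The runs of fewer than 5 members were chosen after their values were seen.

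The chr17 run holds a duplicated pair of divergent genes, whose start regions are shown because they are nearly the same sequence while the RNA of the 4 genes differed. Zfp942 (minus strand) and Zfp943 (plus strand) start 95 bp apart, and Zfp944 (minus) and Zfp758 (plus) 63 bp apart. No other 2 of the 122 members with a RefSeq start window (250 bases before to 50 after the start) have windows that overlap on opposite strands, while 13.9% of members and 11.9% of all genes overlap such a window of any gene. The windows below are from RefSeq, GRCm38.p6 (mm10), 5′ to 3′ on the gene's own strand, with capitals at bases that had no identical partner when a gene was aligned with its duplicate. Zfp943 is at chr17:21962309-21962608 (plus) and Zfp758 at chr17:22361213-22361512 (plus), identical at 97.3% of 300 positions. Zfp942 is at chr17:21962415-21962714 (minus) and Zfp944 at chr17:22361351-22361650 (minus), identical at 91.3%. Most capitals are at the ends, where the 2 annotated starts are offset.
Zfp943: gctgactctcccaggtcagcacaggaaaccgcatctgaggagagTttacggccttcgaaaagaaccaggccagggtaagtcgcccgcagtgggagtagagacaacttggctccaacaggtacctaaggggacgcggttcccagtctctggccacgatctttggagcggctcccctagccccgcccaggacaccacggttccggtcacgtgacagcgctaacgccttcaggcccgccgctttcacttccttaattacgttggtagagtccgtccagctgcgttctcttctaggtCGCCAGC
Zfp758: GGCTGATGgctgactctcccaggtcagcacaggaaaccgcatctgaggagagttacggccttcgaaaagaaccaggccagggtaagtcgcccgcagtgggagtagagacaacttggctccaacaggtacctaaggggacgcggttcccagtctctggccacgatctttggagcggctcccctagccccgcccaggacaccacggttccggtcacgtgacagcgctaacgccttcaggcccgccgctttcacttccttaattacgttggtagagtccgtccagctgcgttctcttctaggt
Zfp942: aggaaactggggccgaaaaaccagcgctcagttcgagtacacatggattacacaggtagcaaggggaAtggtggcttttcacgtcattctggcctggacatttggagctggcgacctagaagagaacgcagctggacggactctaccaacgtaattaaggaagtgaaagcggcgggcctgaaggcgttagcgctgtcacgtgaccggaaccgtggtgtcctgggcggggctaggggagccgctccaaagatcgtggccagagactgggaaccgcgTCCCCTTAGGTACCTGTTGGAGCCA
Zfp944: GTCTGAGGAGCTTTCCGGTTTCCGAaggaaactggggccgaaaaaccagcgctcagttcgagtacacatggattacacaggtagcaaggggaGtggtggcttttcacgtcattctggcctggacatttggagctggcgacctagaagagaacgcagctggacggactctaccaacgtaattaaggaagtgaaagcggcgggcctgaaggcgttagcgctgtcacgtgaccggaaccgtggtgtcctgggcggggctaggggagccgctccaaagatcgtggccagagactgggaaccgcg

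Zfp943 rose in Th2 cells from 151, 180 and 172 in WT to 354, 322 and 281 in the labelled-KO libraries (log2 0.92 ± 0.15, limma adjusted p = 2.74e-05). Its duplicate Zfp758 was at 619, 479 and 639 in WT and at 580, 544 and 525 in the labelled-KO libraries (log2 -0.06 ± 0.15, limma adjusted p = 0.762). On the other strand, both duplicates rose: Zfp942 from 327, 282 and 287 to 642, 484 and 536 (log2 0.88 ± 0.13, limma adjusted p = 1.43e-05), and Zfp944 from 341, 490 and 252 to 890, 834 and 652 (log2 1.17 ± 0.22, limma adjusted p = 0.000149). In naive WT cells the 4 genes were at 936 to 1074 (Zfp943), 747 to 902 (Zfp758), 844 to 1121 (Zfp942) and 321 to 500 (Zfp944), and none differed between the naive genotypes. From naive to Th2 WT, Zfp943 fell by 2.58 ± 0.14 and Zfp758 by 0.53 ± 0.14 on the log2 scale. H3K9me3 peaks of the Th2 WT list lay on all 4 genes. Reads that fit both duplicates could be assigned to either, and this was not tested.

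A second pair of similar start windows, on chromosome 7, belongs to Zfp747 at chr7:127376001-127376300 and Zfp764 at chr7:127406773-127407072, both on the minus strand and identical at 88.3% of positions. It is shown because the RNA of the 2 genes moved in opposite directions in Th2 cells.
Zfp747: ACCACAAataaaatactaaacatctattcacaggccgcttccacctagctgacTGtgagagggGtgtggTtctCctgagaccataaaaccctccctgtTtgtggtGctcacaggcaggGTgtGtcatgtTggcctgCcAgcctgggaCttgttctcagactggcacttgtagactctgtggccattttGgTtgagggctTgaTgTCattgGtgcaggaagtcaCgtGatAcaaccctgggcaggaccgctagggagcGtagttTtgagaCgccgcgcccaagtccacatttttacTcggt
Zfp764: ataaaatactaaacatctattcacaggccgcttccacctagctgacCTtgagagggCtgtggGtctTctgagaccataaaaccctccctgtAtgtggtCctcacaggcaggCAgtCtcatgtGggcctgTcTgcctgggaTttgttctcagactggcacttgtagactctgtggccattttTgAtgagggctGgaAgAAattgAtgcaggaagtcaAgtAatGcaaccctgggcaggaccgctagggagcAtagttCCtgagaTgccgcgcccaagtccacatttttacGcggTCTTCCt

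Zfp764 rose in Th2 cells from 214, 206 and 162 to 344, 311 and 380 in the labelled-KO libraries (log2 0.83 ± 0.16), while Zfp747 went from 280, 330 and 372 to 234, 234 and 275 (log2 -0.40 ± 0.16, limma adjusted p = 0.0400). In Th2-Th1 cells both fell, Zfp764 from 595 and 658 to 316, 320 and 358 (log2 -0.92 ± 0.18) and Zfp747 from 593 and 545 to 344, 329 and 369 (log2 -0.71 ± 0.18). Each overlapped an H3K9me3 peak in the Th2 WT list and none in the Th2 list labelled Setdb1 KO.

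The starts of the zinc finger genes carried open chromatin in both genotypes. Of 122 members with a start window, 88.5% overlapped an ATAC-seq peak (transposase-accessible DNA) in Th2 WT and 83.6% in Th2 labelled Setdb1 KO, where 44.7% and 40.8% of all genes did. None gained such a peak in the labelled-KO list and 6 were without it there (Zfp641, Zfp651, Zfp697, Zfp768, Zfp791 and Zfp936), where 119 of 27025 genes gained one and 1163 were without it. H3K27ac, a mark of active promoters and enhancers, covered 76.2% and 74.6%, where 35.3% and 32.0% of all genes were covered. It was in the WT list only for Zfp664, Zfp763, Zfp783, Zfp937, Zfp956 and Zfp964, and in the labelled-KO list only for Zfp692, Zfp820, Zfp821 and Zfp954, where 1268 and 398 of 27025 genes were in the WT or the labelled-KO list only. Of the latter 4, Zfp820 was higher and Zfp821 and Zfp954 lower in labelled-KO Th2 RNA, and Zfp783, of the former 6, was higher. These lists also had no replicates and differed in size. ATAC-seq had 92129 peaks in Th2 WT and 58523 in Th2 labelled Setdb1 KO, and H3K27ac had 31236 and 40734. Of the 6 genes without an ATAC-seq peak in the labelled-KO list only, Zfp641, Zfp697, Zfp791 and Zfp936 were below the RNA level tested. Over whole genes and among tested genes only, ATAC-seq peaks of Th2 WT overlapped 97.6% of members and 85.6% of all genes. For H3K27ac in Th2 WT these shares were 94.4% and 76.2%. H3K9me3 overlapped 2 of the members' 150 windows in Th2 WT. Counted by window, the remaining numbered Zfp genes were close to the members. ATAC-seq peaks overlapped 87.3% of the members' windows and 85.1% of theirs in Th2 WT, and 82.7% and 80.9% in Th2 labelled Setdb1 KO. For H3K27ac the shares were 75.3% and 76.1%, and 72.7% and 71.8%. The motif CCAAT, on either strand, was in 54.0% of the members' windows, 37.8% of those of the remaining numbered Zfp genes and 37.4% of all 32851 windows. GGGCGG, searched the same way, was in 42.7%, 46.3% and 35.7%. In the same order, CACGTG was in 10.0%, 4.79% and 7.15%, TTCNNNGAA in 8.67%, 22.9% and 8.30%, and TATAAA in 6.00%, 8.51% and 13.6%. TGACGTCA was in 1.33%, 5.85% and 1.79%, AAGATGGC in 4.67%, 5.85% and 2.75%, and CACTTCCGG in 4.67%, 7.45% and 2.03%. The printed windows of Zfp942, Zfp943, Zfp944 and Zfp758 all hold GGGCGG and none holds CCAAT.

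Most of the genes listed here as partners of KRAB zinc finger silencing were higher in Th2 cells labelled Setdb1 KO. Of 29 listed names, 27 were in the table and all 27 were tested: 19 were higher and none lower, where 29.3% and 24.7% of all genes were called. The median log2 difference over the 27 was 0.98 (0.13 over all genes). The 8 that were not called were Trim28, Ehmt1, Ehmt2, Cbx1, Cbx3, Hdac2, Daxx and Uhrf2. Setdb1 itself is among the 19. Atf7ip, which encodes the partner that stabilises SETDB1, differed by 2.15 ± 0.27, Morc2a, an effector of the HUSH silencing complex, by 2.39 ± 0.12, and Cbx5, which encodes heterochromatin protein 1 alpha, by 1.55 ± 0.11. Trim28, the adaptor that KRAB domains bind, was level, with 5390, 5606 and 6099 in WT and 5946, 5741 and 5389 in the labelled-KO libraries (log2 0.00 ± 0.10). In naive cells 8 partners were higher and 1 lower (7.43% and 3.45% of all genes), and in Th2-Th1 cells 11 were higher and 4 lower (17.6% and 16.1%). From naive to Th2 WT, which uses the same Th2 WT libraries, 10 partners were higher and 14 lower (32.8% and 33.1% of all genes). In that step the log2 difference was -2.47 for Atf7ip, -1.67 for Morc2a and 0.68 for Cbx5.

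Of the remaining numbered Zfp genes 184 were tested. In Th2 cells labelled Setdb1 KO 71 were higher and 33 lower (median log2 difference 0.30), and from naive to Th2 WT 30 were higher and 99 lower (median -0.74). In WT Th2-Th1 against Th2 cells 43 were higher and 44 lower (median 0.09). By the interaction test (limma) the genotype difference was more positive in Th2 than in naive cells for 20.7% of the remaining numbered Zfp genes and 29.1% of the members. No difference between these genes and the members was tested.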

How the data were processed

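The deposited expression table held normalised read counts (signal values): the authors divided each gene's reads by a size factor per library, and 100% of values came back as whole reads within 0.01. The table came in 2 identical copies and the first was used. The submitters' processing notes name cutadapt 1.3, TopHat2 2.0.5, BWA 0.7.10, MACS2 2.1.0, DESeq and the mm10 genome. The counting annotation, the strand setting and the treatment of reads with several alignments are not stated in the sources used here. The authors deposited a score per peak, used here only to keep the upper part of each list as an alternative; caller and scale of the H3K9me3 scores are not stated in the sources used here. In the H3K27ac and ATAC-seq lists the deposited fold enrichment ratio and -log10 p and q values, and the H3K4me1 lists, were not used.

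Each gene was tested with limma 3.58.1 (trend) on log2(value + 1), for genes with at least 10 in at least 2 libraries, all 18 libraries in 1 fit with 12 residual degrees of freedom and a Benjamini-Hochberg adjusted p under 0.05 over 17254 genes. A log2 difference on this scale understates changes of low genes. Fits were tested on simulated data first. Alternatives were a pseudocount of 5, no filter, TMM scaling, edgeR 4.0.16 (quasi-likelihood) and DESeq2 1.42.0 on recovered reads, only the groups compared, a replicate block and leaving out each library; leaving out 3 naive libraries and reducing all libraries to 10.019 M reads were added after the data were seen. Genes were placed by RefSeq symbol and synonym on GRCm38 (94.5% of tested genes), and a peak counted when it overlapped a gene by at least 1 bp. Peak alternatives were peaks above each list's median score, 500 bp of overlap and genes widened by 5000 bp. Start windows were aligned with Biopython 1.88 under Python 3.11.15.

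Genes were named by rule: in each genotype comparison up to 10 called members per direction, ranked by log2 change, whose groups did not overlap and whose mean reached 50; in each WT step and interaction up to 5; up to 15 per H3K9me3 class; the 5 largest genomic runs; and always Zfp600, Zfp608, Zfp609, Zfp638, Zfp644, Zfp683, Zfp687, Zfp706, Zfp708, Zfp711, Zfp746, Zfp750, Zfp809, Zfp819 and Zfp932. Members, lists and the rule were chosen with earlier results of these data known, and genes named for their peaks, runs or start windows outside that rule were chosen after their values were seen.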

Additional observations from a re-analysis of the deposited data

Results flagged for a closer look

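In naive WT cells 6 of 54 named genes had 1 library far from the other 3, where chance flags about 1 in 20 groups. Zfp644 was at 3540 in replicate 2 and at 4100 to 4202 in the others. The other 5 were at 0 in all naive WT libraries but 1, a pattern in which any reads in a single library meet the criterion: Zfp683 at 1.37, Zfp711 at 1.81, Zfp750 at 3.74, Zfp768 at 10.9 and Zfp819 at 9.05. Those of Zfp711, Zfp768 and Zfp819 were in replicate 3, 1 of the libraries with many more genes detected.

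The genotype difference (labelled Setdb1 KO against WT, log2) differed between states by the interaction test (limma), and the 5 largest each way follow. In Th2 against naive cells it was larger for Zfp783 (2.891), Zfp946 (2.869), Zfp784 (2.346), Zfp933 (2.32) and Zfp661 (2.26), and smaller for Zfp948 (-2.108), Zfp772 (-2.046), Zfp608 (-1.885), Zfp870 (-1.532) and Zfp931 (-1.444). In Th2-Th1 against Th2 cells it was larger for Zfp931 (2.484), Zfp629 (1.762), Zfp637 (1.747), Zfp772 (1.736) and Zfp945 (1.711), and smaller for Zfp933 (-2.069), Zfp932 (-2.026), Zfp783 (-1.956), Zfp764 (-1.751) and Zfp882 (-1.692). Zfp784 was not called in this test without the 3 naive libraries that stand apart, Zfp637 not without Th2-Th1 WT replicate 2, and Zfp870 not without any of 4 single libraries.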

How the results depend on the processing

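No called log2 difference reversed among the genes named by rule in the same comparison or named always. Other called differences given above were not followed gene by gene under the alternatives. Those of Zfp747, Zfp764, Zfp942 and Zfp943 in Th2 cells are among them. For differences that were not called, changes of sign were not counted. In naive cells the count of members higher in libraries labelled Setdb1 KO (8) was 1 when only the naive groups were fitted and 3 without the 3 naive libraries that stand apart, and 4 to 8 when each library was left out. The count lower there (6) was 3 with no filter, 3 with the replicate block, 2 with only the groups compared, 2 without the 3 libraries, 3 with equal reads and 1 to 8 when each library was left out. In Th2-Th1 cells the 33 higher became 21 to 29 when each library was left out. In WT Th2-Th1 against Th2 cells the 38 lower became 23 with only those groups and 24 to 38 when each library was left out. The other counts of members called, of members overlapping a peak and of members in genomic runs stayed within 1.5 times under every alternative run. Over all genes the number with a peak fell from 3204 to 2012 (naive WT) and from 3396 to 2056 (Th2 WT) with peaks above the median score. Among members with a Th2 WT peak but none labelled Setdb1 KO, the 7 lower became 4 with TMM scaling, with edgeR and without Th2 WT replicate 2. Among those with a peak in both Th2 lists, the median of -0.09 turned to 0.05, 0.03 and 0.05 under the same 3 settings. The cause of these changes was not tested. Libraries with the same replicate number did not deviate together (correlations of -0.411 to 0.0343 over the comparisons), so the numbers were not taken as pairs, and the replicate block gave 45 higher and 24 lower in Th2 cells and 31 higher and 8 lower in Th2-Th1 cells. The WT libraries, at 10.019 to 19.841 M reads, limit what can be seen for members with few reads.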
